A study of Homo sapiens with 36 samples.

Results

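K562 cells kept for 3 d in 1% oxygen were compared with K562 cells kept for 3 d in 5% oxygen. The comparison used 6 of the study's 36 RNA sequencing libraries, 3 from each oxygen level, and every gene with a mean of at least 1 FPKM over these 6 libraries, which was 11078 of the 21950 genes in the deposited table. FPKM are fragments per kilobase of transcript scaled for the size of each library, so they are levels per length. The study cultured this line in 1%, 5% or 21% oxygen and collected cells at 6 h, 24 h, 3 d and 6 d, with 3 libraries for each of the 12 combinations. K562 is a human erythroleukemia line, and the labels name no genotype, drug or other treatment that separated the groups. Cells grew in DMEM in multiwell plates, each oxygen level had its own incubator setting, and the cultures were passaged at 3 d. The oxygen level was that of the incubator, so the level and the incubator cannot be told apart. The labels do not say whether the replicates were separate cultures, and p-values therefore measure only the spread between libraries.

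Cells sense oxygen through the prolyl hydroxylases EGLN1, EGLN2 and EGLN3, which mark the alpha subunits of the hypoxia-inducible factors, HIF1A and EPAS1, for destruction while oxygen is plentiful. When oxygen is scarce the alpha subunits persist, pair with ARNT and bind a short core motif near genes for glycolysis, glucose uptake, lactate export, pH control and vessel growth. Lasting hypoxia is also known to lower mitochondrial respiration and the making of ribosomes. Both 1% and 5% oxygen are below the oxygen of room air, and the comparison sets these 2 levels against each other.

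Promoters of 4 HIF targets are shown because 2 of the genes rose and 2 did not pass. The windows are the 250 bases before the annotated start of 4 genes on the gene's strand, taken from RefSeq on GRCh38.p14, because the genome build of the deposited table is not given in the sources used here. CA9 (chr9:35673678-35673927, plus strand) and BHLHE40 (chr3:4979187-4979436, plus strand) were higher in 1% than in 5% oxygen at 3 d, whereas PGK1 (chrX:78103998-78104247, plus strand) and ALDOC (chr17:28576896-28577145, minus strand) did not pass the test. Capitals mark each copy of the HIF core, ACGTG or its reverse complement CACGT, and overlapping copies run together.
CA9: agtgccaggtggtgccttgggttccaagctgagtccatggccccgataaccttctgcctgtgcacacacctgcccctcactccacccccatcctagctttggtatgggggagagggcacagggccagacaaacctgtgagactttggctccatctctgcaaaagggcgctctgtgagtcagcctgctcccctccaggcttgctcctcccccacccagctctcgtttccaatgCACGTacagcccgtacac
BHLHE40: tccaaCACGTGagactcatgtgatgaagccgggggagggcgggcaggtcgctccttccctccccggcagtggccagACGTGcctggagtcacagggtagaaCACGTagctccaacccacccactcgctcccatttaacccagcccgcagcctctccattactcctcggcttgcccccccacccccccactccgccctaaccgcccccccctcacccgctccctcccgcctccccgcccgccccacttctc
PGK1: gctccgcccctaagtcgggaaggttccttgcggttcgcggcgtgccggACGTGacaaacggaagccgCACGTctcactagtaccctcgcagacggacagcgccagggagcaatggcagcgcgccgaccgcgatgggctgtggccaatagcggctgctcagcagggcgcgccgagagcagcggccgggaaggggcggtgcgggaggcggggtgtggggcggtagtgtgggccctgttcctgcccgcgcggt
ALDOC: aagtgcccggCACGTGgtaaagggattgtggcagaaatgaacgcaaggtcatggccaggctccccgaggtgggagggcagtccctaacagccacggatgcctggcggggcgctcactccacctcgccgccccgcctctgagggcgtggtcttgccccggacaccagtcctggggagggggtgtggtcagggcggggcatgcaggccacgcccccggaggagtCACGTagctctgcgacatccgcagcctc
All 4 windows held the core, in 1 copy for CA9, 4 for BHLHE40, 2 for PGK1 and 3 for ALDOC, counting overlapping copies. The core was in 6501 of 35116 RefSeq promoter windows of this length, 18.5%. Among genes tested here with a window it was in 2379 of 8069 (29.5%). It was in a window of 20 of the 29 matched genes on the list of other HIF targets and of 12 of the 20 matched glycolysis genes. Among all genes with a window that rose it was in 186 of 669 (27.8%), and among those that fell in 249 of 736 (33.8%). A match of these letters is a description and does not show that a factor was bound there.

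A single library stood apart. Replicate 3 of 1% oxygen listed 7220 genes above 0, against 19245 and 18885 in replicates 1 and 2 of 1% oxygen and 18592 to 18896 in the 5% libraries. Among 3695 well expressed genes (median above 20 FPKM) it had a value of 0 for 429, against 0 to 3 in the other libraries of the 6. It is called the shallow library here. Differences at 3 d are therefore given with and without it, and the values of 1% oxygen are always those of replicates 1, 2 and 3 in that order, the shallow library last. Summed FPKM were 680121, 701994 and 535152 in 1% oxygen, against 839758, 720124 and 838407 in 5% oxygen. All 15 markers of K562 and erythroid cells averaged at least 1 FPKM. The summed T cell markers, almost all CD3D, were 340.3, 332 and 242 FPKM in 1% oxygen, against 305, 370.4 and 451 FPKM in 5% oxygen, and the markers of B cells, monocytes, fibroblasts and endothelium summed to at most 24.5 FPKM in any library. KRT8 and KRT18 made up nearly all of the epithelial sum.

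A gene is said to have risen or fallen in 1% oxygen only where limma on log2(FPKM + 1), fitted to all libraries of the study, gave an adjusted p under 0.05 with the same sign both with all libraries and without the shallow one. By that rule 956 genes rose (8.63% of those tested) and 937 fell (8.46%), 17.1% in all. With all 6 libraries alone 4248 genes passed (38.3%), 1736 higher (15.7%) and 2512 lower (22.7%), and 1169 of those lower genes were listed at 0 in the shallow library. Without it 3161 passed (28.5%), 2034 higher (18.4%) and 1127 lower (10.2%). Among the 937 genes that fell, 270 were at 0 in the shallow library and the value without it is the one to read for them. The 6 libraries did not overlap between groups for 3004 genes (27.1%), of which 1319 were higher (11.9%) and 1685 lower (15.2%) in 1% oxygen. Most differences were small. They reached at least 1 on the log2 scale in both fits for 75 of the genes that rose and 14 of those that fell. The median over all genes tested was -0.20 with all libraries and 0.08 without the shallow one, which is the level that a list's median is read against. The counts also leaned on 2 other libraries, since 496 genes rose and 363 fell without replicate 1 of 1% oxygen, and 619 rose and 561 fell without replicate 3 of 5% oxygen. Without replicate 2 of 1% oxygen 736 rose and 881 fell. Rescaling each library to a common sum, which removes differences in summed FPKM, gave 1488 rises and 224 falls, so that 86.9% of the calls were rises in place of 50.5%. A fit to the 6 libraries alone called no gene by limma with Benjamini-Hochberg adjustment, while 660 genes had an unadjusted p under 0.05 in both of its forms. In bulk samples fewer cells of a type and less RNA per cell cannot be told apart.

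**Figure D1:**
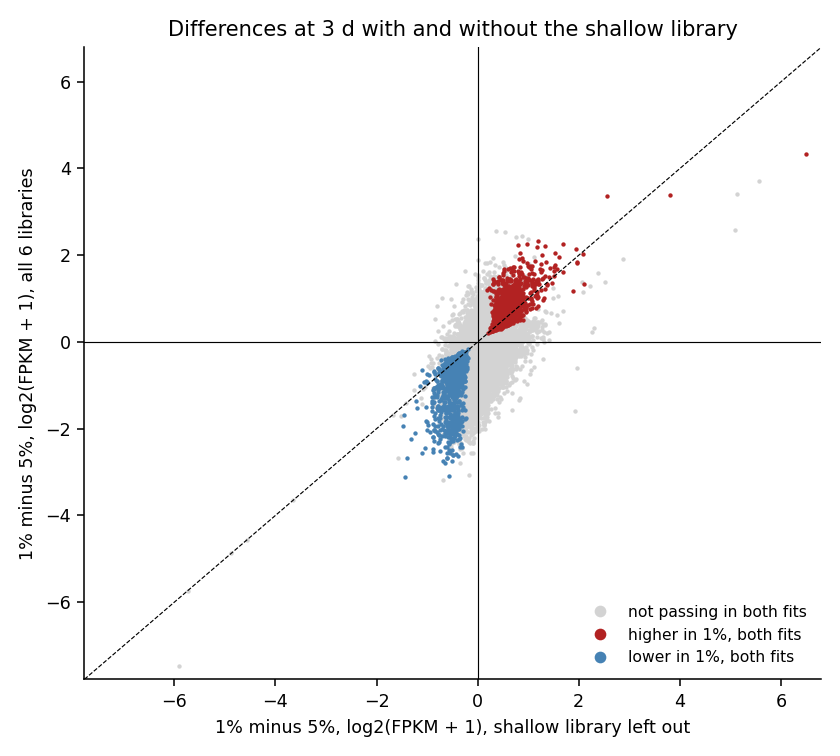
Each point is 1 of the 11078 genes tested, with its difference of 1% minus 5% oxygen at 3 d in log2(FPKM + 1) without the shallow library on the horizontal axis and with all 6 libraries on the vertical axis. Red points rose (956) and blue points fell (937) in both fits, grey points passed in at most 1 of them, and the dashed line marks equal values.

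Of 21 glucose transporters and glycolytic enzymes tested at 3 d, ENO2 rose, LDHB fell and 19 did not pass in both fits. Of all genes tested 17.1% passed, so the count of called genes is near the background and is no result about this list. The list's median was -0.18 with all libraries and -0.05 without the shallow library, against -0.20 and 0.08 over all genes. ALDOC, an aldolase, had 314, 357 and 252 FPKM in 1% oxygen, 324, 351 and 366 FPKM in 5% oxygen and 59.05, 61.04 and 62.5 FPKM in 21% oxygen. Its libraries in 1% and 5% overlapped and lay far above those in 21%, and the difference of 1% minus 5% was -0.19 and -0.05 with and without the shallow library, with 95% intervals of -0.41 to 0.04 and -0.26 to 0.16. PGK1, phosphoglycerate kinase, had 1183, 1314 and 936 FPKM in 1% oxygen, 1047, 1109 and 1108 FPKM in 5% oxygen and 391, 405 and 465 FPKM in 21% oxygen. Its difference was 0.06 and 0.20 (adjusted p = 0.58 and 0.047), with 95% intervals of -0.11 to 0.23 and 0.05 to 0.35. The interval without the shallow library lies just above 0. LDHA, the lactate dehydrogenase subunit that favours lactate, had 3697, 4129.9 and 2309 FPKM in 1% oxygen, against 3642, 3692 and 3663 FPKM in 5% oxygen, and its differences were -0.16 and 0.09 (95% intervals -0.40 to 0.08 and -0.07 to 0.26). GPI, the isomerase that makes fructose 6-phosphate, differed by -0.01 and 0.01, with intervals of -0.13 to 0.11 and -0.11 to 0.14. SLC2A3, a glucose transporter, had 126, 121 and 90.4 FPKM in 1% oxygen, against 109, 109.5 and 141 FPKM in 5% oxygen, again with overlap.

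BNIP3 and P4HA1, which are HIF targets outside glycolysis, did not pass either. BNIP3, a mitophagy receptor, had 236, 264 and 190.4 FPKM in 1% oxygen, 247, 269 and 248 FPKM in 5% oxygen and 72.4, 63.3 and 66.01 FPKM in 21% oxygen, and differed by -0.16 and -0.03 (95% intervals -0.34 to 0.03 and -0.19 to 0.14). P4HA1, a collagen prolyl hydroxylase, had 259, 276 and 204 FPKM in 1% oxygen, 238, 239 and 247 FPKM in 5% oxygen and 31.8, 33.3 and 35.2 FPKM in 21% oxygen, and differed by 0.02 and 0.15. The intervals bound how large a difference these libraries allow and do not show equal levels. LDHB, the subunit that favours pyruvate, fell in 1% oxygen. LDHB had 666, 687 and 467 FPKM in 1% oxygen, 937, 907 and 1018 FPKM in 5% oxygen and 1400.2, 1349 and 1442 FPKM in 21% oxygen, with no overlap and an order of 1%, 5%, 21% from low to high. Its difference was -0.67 ± 0.10 with all libraries (adjusted p = 7.9e-05) and -0.49 ± 0.09 without the shallow library (adjusted p = 0.00022). The rise of ENO2 (0.79 and 0.43) was lost when replicate 1 or 2 of 1% oxygen, or replicate 1 or 2 of 5% oxygen, was left out.

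A part of the other HIF targets rose. Of 36 tested, 10 rose, 2 fell and 24 did not pass in both fits, with a median of 0.16 with all libraries and 0.40 without the shallow library. Of all genes tested 8.63% rose and 8.46% fell. CA9, the surface carbonic anhydrase that exports acid, had 28.3, 35.2 and 35.2 FPKM in 1% oxygen, 20.1, 21.4 and 22.3 FPKM in 5% oxygen and 0, 0 and 0 FPKM in 21% oxygen. All 1% libraries were above all 5% libraries, and CA9 was listed at 0 throughout 21% oxygen. Its difference was 0.60 ± 0.16 with all libraries (adjusted p = 0.0072) and 0.55 ± 0.17 without the shallow library (adjusted p = 0.015). ANGPTL4, a secreted inhibitor of lipoprotein lipase, had 43.96, 54.3 and 10.02 FPKM in 1% oxygen, against 10.7, 12.5 and 14.3 FPKM in 5% oxygen. Replicates 1 and 2 of 1% oxygen lay far above the 5% libraries and the shallow one lay below them. ANGPTL4 differed by 1.17 ± 0.33 with all libraries (adjusted p = 0.0099) and 1.89 ± 0.18 without the shallow library (adjusted p = 6.6e-08). ERO1L, an oxidase of the endoplasmic reticulum that forms disulfide bonds, had 17.9, 20.3 and 36.2 FPKM in 1% oxygen, against 11.4, 11.7 and 9.71 FPKM in 5% oxygen, with no overlap. Its difference was 1.05 ± 0.19 with all libraries (adjusted p = 0.00038) and 0.75 ± 0.16 without the shallow library (adjusted p = 0.0011). DDIT4, an inhibitor of mTORC1 signalling, had 1482, 1799 and 1189.9 FPKM in 1% oxygen, against 977, 1059 and 1065 FPKM in 5% oxygen. All 3 libraries of 1% were above those of 5%, and DDIT4 differed by 0.51 ± 0.11 with all libraries (adjusted p = 0.0012) and 0.66 ± 0.10 without the shallow library (adjusted p = 3.2e-05).

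EPAS1, the alpha subunit of HIF-2, rose itself. It had 15.7, 22.1 and 16.2 FPKM in 1% oxygen, 7.87, 7.64 and 8.53 FPKM in 5% oxygen and 2.47, 3.101 and 1.66 FPKM in 21% oxygen, so that each group stood clear of the next. Its difference was 1.06 ± 0.15 with all libraries (adjusted p = 5.1e-05) and 1.13 ± 0.16 without the shallow library (adjusted p = 2.7e-05). The call held when any 1 library other than the shallow one was left out. The rule already requires a pass without the shallow library, so leaving that one out is no further check on any call. HIF1A, whose protein is controlled mainly by its stability, had 11.6, 11.5 and 12.9 FPKM in 1% oxygen, against 11.97, 10.6 and 9.62 FPKM in 5% oxygen, and differed by 0.16 and 0.11 (adjusted p = 0.44 and 0.68). BHLHE40, a transcriptional repressor, had 253, 245 and 306 FPKM in 1% oxygen, against 181, 177 and 208 FPKM in 5% oxygen. NDRG1, a stress-response gene, had 5.15, 3.02 and 17.4 FPKM in 1% oxygen, against 2.04, 1.43 and 2.59 FPKM in 5% oxygen. SLC16A3, the lactate exporter MCT4, had 7.701, 9.34 and 8.78 FPKM in 1% oxygen, against 5.08, 5.68 and 5.12 FPKM in 5% oxygen. None of these 3 overlapped between groups. With and without the shallow library BHLHE40 differed by 0.50 and 0.40 (adjusted p = 0.0022 and 0.009). NDRG1 differed by 1.37 and 0.74 (adjusted p = 0.0012 and 0.00068), and SLC16A3 by 0.61 and 0.59 (adjusted p = 0.013 and 0.022).

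Not every HIF target moved up. PLOD1, a collagen lysyl hydroxylase, fell. It had 62.3, 62.5 and 56.7 FPKM in 1% oxygen, 85.9, 88.2 and 95.1 FPKM in 5% oxygen and 47.6, 47.2 and 49.7 FPKM in 21% oxygen. The highest group was 5%, and PLOD1 differed by -0.56 ± 0.10 with all libraries (adjusted p = 0.00029) and -0.52 ± 0.10 without the shallow library (adjusted p = 0.00059) between 1% and 5%. LONP1, a mitochondrial protease, also fell (-0.51 and -0.35). VEGFA, the vessel growth factor, had 13.8, 12.4 and 15.2 FPKM in 1% oxygen, against 10.4, 11.5 and 9.62 FPKM in 5% oxygen, and its libraries did not overlap, but it did not pass (0.36 and 0.29 (adjusted p = 0.076 and 0.2)). PDK1, a kinase that inhibits pyruvate dehydrogenase, and EGLN3, an oxygen sensor, passed only without the shallow library. PDK1 had 41.2, 41.9 and 25.8 FPKM in 1% oxygen, against 23.7, 25.3 and 25.7 FPKM in 5% oxygen, with differences of 0.50 and 0.72 (adjusted p = 0.05 and 0.0072). EGLN3 had 135, 143 and 63.6 FPKM in 1% oxygen, against 80.8, 84.1 and 83.8 FPKM in 5% oxygen, with differences of 0.37 and 0.74 (adjusted p = 0.12 and 0.00021). In both genes the shallow library was near or under the 5% libraries and the other 1% libraries were above them. The count of 10 is not firm. It was 20 without the shallow library, 6 without replicate 1 and 4 without replicate 2 of 1% oxygen, and 4 with a pseudocount of 0.1. The calls of CA9 and ANGPTL4 were lost without replicate 2 of 1% oxygen, those of BHLHE40, NDRG1 and LONP1 without replicate 1 of 1% oxygen, and that of SLC16A3 without replicate 2 of 1% or replicate 3 of 5% oxygen. CA9, ANGPTL4, NDRG1, SLC16A3 and ENO2 were not called with that pseudocount, CA9, SLC16A3 and ENO2 not with array weights, SLC16A3 not after quantile normalization, and PLOD1 and LONP1 not after rescaling to a common sum.

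**Figure D2:**
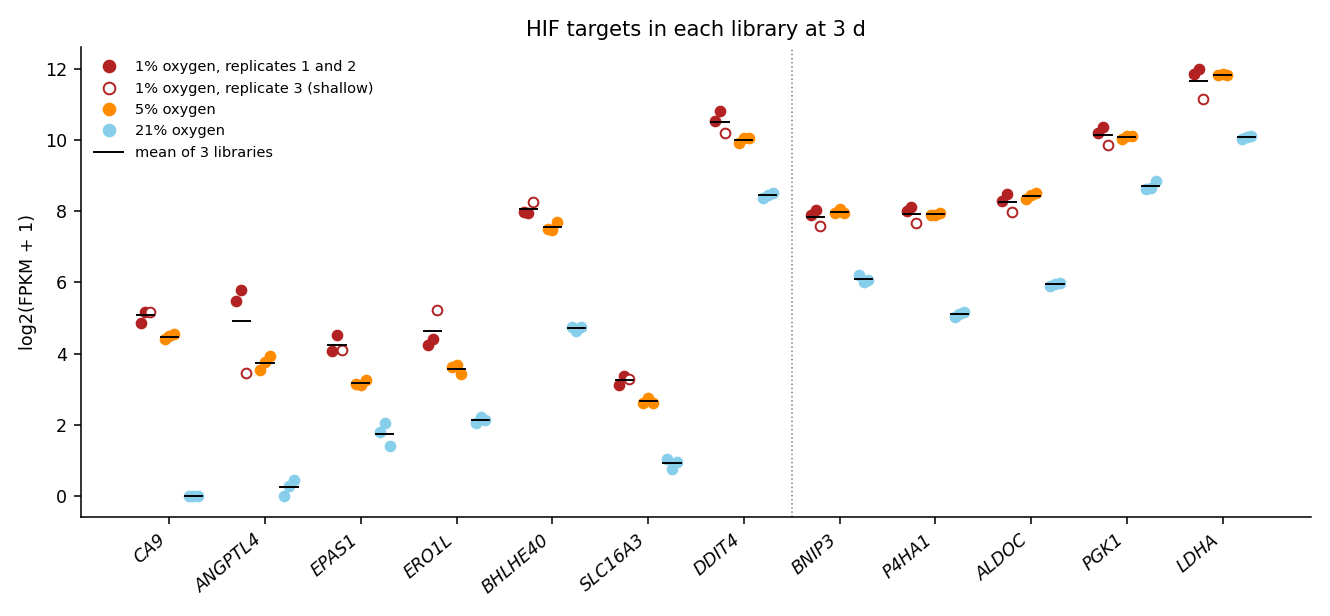
Level of 12 genes in each library at 3 d as log2(FPKM + 1), with libraries of 1%, 5% and 21% oxygen from left to right, the shallow library as an open circle and the mean of 3 libraries as a black line. Left of the dotted line are 7 genes that rose in 1% against 5% oxygen, and right of it are 5 that did not pass, such as LDHA with differences of -0.16 and 0.09.

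Some epithelial and early-response genes rose. The keratin and epithelial list had 3 of 9 members higher (DMKN, KRT8 and KRT18) and none lower, with a median of 0.10 with all libraries and 0.39 without the shallow library. Of all genes tested 8.63% rose. KRT8, an intermediate filament keratin that K562 cells make, had 3468, 4239 and 2824 FPKM in 1% oxygen, 2490.2, 2483 and 2607 FPKM in 5% oxygen and 357, 358 and 388 FPKM in 21% oxygen. The 1% libraries were above the 5% libraries without overlap, and both were far above 21%. Its difference was 0.45 ± 0.10 with all libraries (adjusted p = 0.0025) and 0.60 ± 0.10 without the shallow library (adjusted p = 8.1e-05). KRT18, its filament partner, had 3261, 3648 and 2495 FPKM in 1% oxygen, against 2368, 2429 and 2751 FPKM in 5% oxygen, which overlapped. It differed by 0.30 and 0.46 (adjusted p = 0.017 and 0.00027) and was no longer called without replicate 2 of 1%, replicate 1 of 5% or replicate 2 of 5% oxygen. DMKN, a secreted protein of the epidermis, had 21.9, 27.2 and 37.5 FPKM in 1% oxygen, against 4.74, 8.302 and 4.51 FPKM in 5% oxygen. It was listed at 0.156, 0 and 0 FPKM in 21% oxygen. Each 1% library exceeded each 5% library, and DMKN differed by 2.13 ± 0.19 with all libraries (adjusted p = 4.2e-08) and 1.94 ± 0.18 without the shallow library (adjusted p = 3.1e-08). KRT79, a keratin of the skin, had 26.1, 22.1 and 17.1 FPKM in 1% oxygen, against 4.198, 4.004 and 9.02 FPKM in 5% oxygen. The groups did not overlap, the 1% libraries being higher, and KRT79 differed by 1.81 ± 0.19 with all libraries (adjusted p = 9.1e-07) and 1.97 ± 0.19 without the shallow library (adjusted p = 6e-08). The calls of KRT8, DMKN and KRT79 held when any 1 library other than the shallow one was left out.

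On the list of 21 immediate early genes, 5 rose and 2 fell, with a median of 0.19 with all libraries and 0.28 without the shallow library. Of all genes tested 8.63% rose and 8.46% fell, so the 2 falls are near the background. JUN, a subunit of the AP-1 transcription factor, had 12.2, 27.1 and 15.4 FPKM in 1% oxygen, against 6.25, 4.55 and 4.204 FPKM in 5% oxygen. No 5% library reached the lowest 1% library, and JUN differed by 1.62 ± 0.26 with all libraries (adjusted p = 0.00013) and 1.70 ± 0.28 without the shallow library (adjusted p = 9.7e-05). KLF6, a zinc finger transcription factor, had 61.7, 60.1 and 44.6 FPKM in 1% oxygen, against 41.9, 39.6 and 21.7 FPKM in 5% oxygen. Values in 1% were all the higher ones, and KLF6 differed by 0.71 ± 0.16 with all libraries (adjusted p = 0.0024) and 0.86 ± 0.16 without the shallow library (adjusted p = 0.00039). MCL1, which blocks apoptosis, had 41.6, 40.1 and 84.5 FPKM in 1% oxygen, against 25.1, 25.2 and 25.4 FPKM in 5% oxygen. In 1% oxygen every value topped those in 5%, and MCL1 differed by 1.02 ± 0.16 with all libraries (adjusted p = 0.00013) and 0.67 ± 0.10 without the shallow library (adjusted p = 3.2e-05). The calls of JUN, KLF6 and MCL1 held when any 1 library other than the shallow one was left out. DUSP1, a phosphatase that switches off MAP kinases, had 21.8, 52.9 and 26.3 FPKM in 1% oxygen, against 20.9, 10.7 and 1.83 FPKM in 5% oxygen, and the differences were 1.84 and 1.96 (adjusted p = 0.016 and 0.021). The spread within 5% oxygen was over 10-fold, and the call was lost without replicate 3 of 5% or replicate 2 of 1% oxygen. Against the trend, NR4A1, a nuclear receptor of the same early class, fell, with 8.104, 9.68 and 0 FPKM in 1% oxygen, against 14.9, 14.6 and 21.1 FPKM in 5% oxygen. Its libraries did not overlap, and the differences were -1.94 and -0.84 (adjusted p = 0.0032 and 0.0011). DUSP1 and NR4A1 were not called with a pseudocount of 0.1, nor DUSP1 with array weights. The count of 5 was 3 without replicate 2 of 1% oxygen and 8 without the shallow library.

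Some further genes rose. ERRFI1, PIK3R1 and F8 were among the 15 largest rises, PDGFB was named from a list of secreted factors, and PHLDA1 and SLC5A3 were named for their difference between times. ERRFI1, a feedback inhibitor of the EGF receptor family, had 10.6, 13.8 and 10.97 FPKM in 1% oxygen, against 1.52, 1.32 and 4.09 FPKM in 5% oxygen. There was no overlap, with 1% higher, and ERRFI1 differed by 2.04 ± 0.24 with all libraries (adjusted p = 4.9e-06) and 2.08 ± 0.25 without the shallow library (adjusted p = 3.9e-06). PIK3R1, the regulatory subunit of PI3-kinase, had 8.09, 7.09 and 26.5 FPKM in 1% oxygen, against 1.85, 1.75 and 1.39 FPKM in 5% oxygen. The shallow library was the highest. All 3 libraries of 1% were above those of 5%, and PIK3R1 differed by 2.25 ± 0.26 with all libraries (adjusted p = 4.9e-06) and 1.69 ± 0.14 without the shallow library (adjusted p = 7.1e-09). PHLDA1, an early growth factor response gene, had 14.2, 25.9 and 16.95 FPKM in 1% oxygen, against 7.21, 6.36 and 8.95 FPKM in 5% oxygen. Each 1% library exceeded each 5% library, and PHLDA1 differed by 1.20 ± 0.22 with all libraries (adjusted p = 0.0004) and 1.26 ± 0.23 without the shallow library (adjusted p = 0.00032). PDGFB, a platelet-derived growth factor chain, had 8.92, 13.6 and 22.03 FPKM in 1% oxygen, against 5.63, 6.77 and 4.87 FPKM in 5% oxygen. The groups did not overlap, the 1% libraries being higher, and PDGFB differed by 1.15 ± 0.19 with all libraries (adjusted p = 0.00019) and 0.84 ± 0.15 without the shallow library (adjusted p = 0.00033). SLC5A3, the transporter of the osmolyte myo-inositol, had 50.6, 46.7 and 45.04 FPKM in 1% oxygen, against 23.7, 19.6 and 12.8 FPKM in 5% oxygen. No 5% library reached the lowest 1% library, and SLC5A3 differed by 1.34 ± 0.16 with all libraries (adjusted p = 7e-06) and 1.37 ± 0.17 without the shallow library (adjusted p = 4.4e-06). F8, coagulation factor VIII, had 7.297, 7.09 and 7.32 FPKM in 1% oxygen, against 2.21, 2.25 and 1.24 FPKM in 5% oxygen. Values in 1% were all the higher ones, and F8 differed by 1.53 ± 0.15 with all libraries (adjusted p = 3e-07) and 1.52 ± 0.15 without the shallow library (adjusted p = 1.7e-07). Each of these 6 genes kept its call when any 1 library other than the shallow one was left out. PDGFB was not called with a pseudocount of 0.1.

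Some long nuclear RNAs rose too, and here replicates differed. The list labelled nuclear-retained RNAs held 11 long noncoding RNAs, among them GAS5 and SNHG1, which are not confined to the nucleus. On it MALAT1, NEAT1, TUG1 and KCNQ1OT1 rose and none fell, against 8.63% of all genes that rose. The list's median was 0.12 with all libraries and 0.29 without the shallow library. MALAT1, an abundant RNA of nuclear speckles, had 476, 509.9 and 583 FPKM in 1% oxygen, 237, 219 and 119.7 FPKM in 5% oxygen and 129.9, 134 and 106 FPKM in 21% oxygen. In 1% oxygen every value topped those in 5%, and MALAT1 differed by 1.50 ± 0.21 with all libraries (adjusted p = 2.7e-05) and 1.42 ± 0.22 without the shallow library (adjusted p = 6.9e-05). NEAT1, the scaffold of paraspeckles and a known HIF-2 target, had 42.5, 37.1 and 63.7 FPKM in 1% oxygen, 19.4, 20.1 and 23.2 FPKM in 5% oxygen and 7.11, 8.28 and 5.84 FPKM in 21% oxygen. There was no overlap, with 1% higher, and NEAT1 differed by 1.12 ± 0.17 with all libraries (adjusted p = 0.00011) and 0.90 ± 0.16 without the shallow library (adjusted p = 0.00028). Replicate 3 was the lowest of the 5% libraries for MALAT1 but the highest for NEAT1. Another set of large rises followed single libraries. UGDH-AS1 had 298, 83.7 and 267 FPKM in 1% oxygen, against 72.2, 75.8 and 29.3 FPKM in 5% oxygen. TMEM212 had 64.7, 18.3 and 104 FPKM in 1% oxygen, against 14.4, 15.9 and 6.23 FPKM in 5% oxygen. MAB21L3 had 37.1, 10.3 and 42.4 FPKM in 1% oxygen, against 7.87, 7.34 and 3.23 FPKM in 5% oxygen. In all 3, replicates 1 and 3 of 1% oxygen were high, replicate 2 was close to the 5% libraries, replicate 3 of 5% was low, and the call was lost without replicate 1 of 1% oxygen. The call of KCNQ1OT1 was lost in the same way. The call of TMEM212 was also lost without replicate 3 of 5% oxygen. Of the 956 genes that rose, 118 were over 2-fold higher in replicate 1 than in replicate 2 of 1% oxygen and 17 the other way round. Over all genes tested these counts were 486 and 433. Olfactory receptor genes, which serve as a gauge of background reads, were above 0 for 70.1, 54.8 and 2.28% of 394 in 1% oxygen, against 56.3, 53.8 and 48.0% in 5% oxygen. The part of these library differences in the rises was not tested. The strand of the library reads is not stated, so UGDH-AS1 cannot be told apart from overlapping genes.

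A minority of the JmjC and TET dioxygenases rose. Of 22 tested, most but not all of which use oxygen to remove methyl marks, 4 rose and none fell. Their median was 0.02 with all libraries and 0.40 without the shallow library. KDM5C, a histone H3 lysine demethylase, had 15.4, 20.2 and 29.1 FPKM in 1% oxygen, against 12.1, 10.9 and 6.46 FPKM in 5% oxygen. All 3 libraries of 1% were above those of 5%, and KDM5C differed by 1.05 ± 0.19 with all libraries (adjusted p = 0.00049) and 0.82 ± 0.19 without the shallow library (adjusted p = 0.002). JHDM1D, another one, had 2.53, 2.22 and 3.602 FPKM in 1% oxygen, against 1.15, 1.16 and 0.796 FPKM in 5% oxygen. Each 1% library exceeded each 5% library, and JHDM1D differed by 0.88 ± 0.15 with all libraries (adjusted p = 0.0002) and 0.73 ± 0.14 without the shallow library (adjusted p = 0.00042). TET3 and KDM4B also rose, but TET3 was lost without replicate 3 of 5% oxygen, and KDM4B without any 1 library except the shallow one. Of 43 histone genes, 5 rose and none fell, a share near the 8.63% of all genes that rose. Their median was -0.25 with all libraries and 0.36 without the shallow library, so its sign depended on that library. HIST1H4E, a histone H4 gene, had 63.99, 55.9 and 389 FPKM in 1% oxygen, against 28.4, 26.2 and 16.7 FPKM in 5% oxygen. The shallow library was far above the rest, and HIST1H4E differed by 2.22 ± 0.40 with all libraries (adjusted p = 0.00039) and 1.33 ± 0.22 without the shallow library (adjusted p = 0.00011). Histone genes have near-identical copies and lack long poly(A) tails, so their assignment to single genes in a poly(A) library is uncertain.

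The mitochondrial lists moved the other way, against a share of 8.46% of all genes tested that fell. Of 76 mitochondrial ribosomal proteins 28 fell and MRPL15 rose. Of 44 complex I genes 15 fell, and of 39 genes of complexes II to V 8 fell. Of 27 genes of the TCA cycle and pyruvate entry 9 fell, and of 31 genes of import, chaperones and proteases 15 fell while TOMM70A and AFG3L2 rose. Their medians were -0.57 and -0.31, -0.54 and -0.34, -0.47 and -0.27, -0.58 and -0.20 and -0.47 and -0.33 with and without the shallow library, all below the medians of all genes, -0.20 and 0.08. Among the genes given next, TUFM and TRAP1 are on none of these lists and were named for their difference between times. TUFM, the elongation factor of mitochondrial translation, had 173, 189 and 179 FPKM in 1% oxygen, 283, 266 and 261 FPKM in 5% oxygen and 427, 426 and 459.96 FPKM in 21% oxygen. The 3 libraries of 1% were below those of 5%, and TUFM differed by -0.58 ± 0.07 with all libraries (adjusted p = 7.9e-06) and -0.58 ± 0.08 without the shallow library (adjusted p = 1.2e-05). MRPL34, a protein of the large mitochondrial ribosomal subunit, had 40.2, 47.7 and 40.7 FPKM in 1% oxygen, against 67.3, 83.7 and 71 FPKM in 5% oxygen. Each 1% library lay under each 5% library, and MRPL34 differed by -0.77 ± 0.10 with all libraries (adjusted p = 2.3e-05) and -0.74 ± 0.11 without the shallow library (adjusted p = 4.6e-05). MDH2, malate dehydrogenase of the TCA cycle, had 396, 430.2 and 329 FPKM in 1% oxygen, 618, 592 and 624 FPKM in 5% oxygen and 747, 731 and 812 FPKM in 21% oxygen. Without overlap the 1% libraries were the lower ones, and MDH2 differed by -0.67 ± 0.09 with all libraries (adjusted p = 3.4e-05) and -0.56 ± 0.10 without the shallow library (adjusted p = 0.00013). HSPD1, the mitochondrial chaperonin HSP60, had 222, 219.9 and 183 FPKM in 1% oxygen, against 312, 302 and 321 FPKM in 5% oxygen. No 1% library reached the lowest 5% library, and HSPD1 differed by -0.58 ± 0.08 with all libraries (adjusted p = 1.5e-05) and -0.49 ± 0.07 without the shallow library (adjusted p = 4.4e-05). TRAP1, a mitochondrial HSP90, had 114, 135 and 132 FPKM in 1% oxygen, against 195, 192 and 191 FPKM in 5% oxygen. Every value in 1% was the lower one, and TRAP1 differed by -0.60 ± 0.08 with all libraries (adjusted p = 1.5e-05) and -0.63 ± 0.08 without the shallow library (adjusted p = 1e-05). In each of these 5 genes the order of means was 1%, 5%, 21% from low to high. Each call held when any 1 library other than the shallow one was left out. TRAP1 did not pass after rescaling each library to a common sum.

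PHB, a prohibitin of the inner membrane, had 88.8, 106 and 39.2 FPKM in 1% oxygen, against 148, 148 and 157 FPKM in 5% oxygen. In 1% oxygen no value came up to those in 5%, and PHB differed by -1.06 ± 0.19 with all libraries (adjusted p = 0.00034) and -0.63 ± 0.10 without the shallow library (adjusted p = 4.8e-05). TOMM5, a small subunit of the outer membrane import pore, had 221, 238 and 141 FPKM in 1% oxygen, against 348, 390.4 and 417 FPKM in 5% oxygen. There was no overlap, with 1% lower, and TOMM5 differed by -0.98 ± 0.16 with all libraries (adjusted p = 0.00016) and -0.74 ± 0.15 without the shallow library (adjusted p = 0.00061). NDUFAF2, an assembly factor of complex I, had 102, 81.9 and 29.6 FPKM in 1% oxygen, against 136, 169 and 209.7 FPKM in 5% oxygen. The 3 libraries of 1% were below those of 5%, and NDUFAF2 differed by -1.41 ± 0.29 with all libraries (adjusted p = 0.001) and -0.88 ± 0.22 without the shallow library (adjusted p = 0.0041). In these 3 the shallow library was the lowest, and the call of NDUFAF2 was lost without replicate 2 of 1% oxygen. The rises of MRPL15, TOMM70A and AFG3L2 were not called without replicate 2 of 1% oxygen. The number of mitochondrial genes called depended on single libraries. Without replicate 1 of 1% oxygen 9 mitochondrial ribosomal, 4 complex I, 1 complex II to V, 1 TCA and 5 import genes fell, and without replicate 3 of 5% oxygen the counts were 18, 6, 1, 4 and 12. After rescaling each library to a common sum they were 9, 6, 1, 1 and 6. That rescaling raised the median of all genes to 0.04 and 0.26, and each of the 5 lists still had a median below it.

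**Figure D3:**
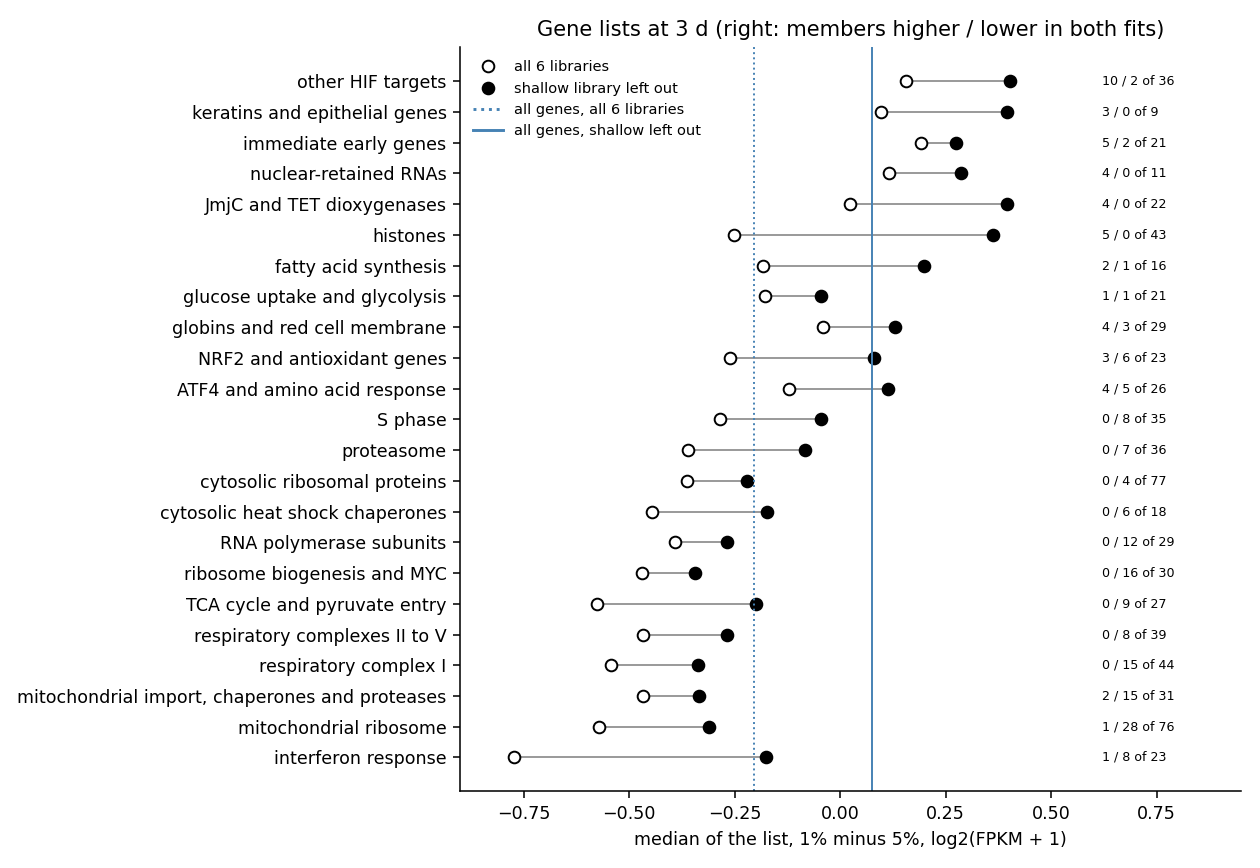
Median difference of 1% minus 5% oxygen in log2(FPKM + 1) for 23 gene lists, with all 6 libraries (open) and without the shallow library (filled), beside the medians of all genes (blue lines, -0.20 and 0.08). Numbers at the right give members that rose, fell and were tested, such as 1 / 28 of 76 for the mitochondrial ribosome.

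Some nucleolar, transcription and chaperone genes fell as well. Of 30 genes for ribosome biogenesis, MYC among them, 16 fell and none rose, with a median of -0.47 with all libraries and -0.34 without the shallow library. TBL3, a factor of the small subunit processome, is not on this list and was named for its difference between times. It had 20.2, 26.9 and 20.1 FPKM in 1% oxygen, 38.5, 40.4 and 38.9 FPKM in 5% oxygen and 70.2, 74.6 and 75.6 FPKM in 21% oxygen. Each 1% library lay under each 5% library, and TBL3 differed by -0.80 ± 0.10 with all libraries (adjusted p = 7.9e-06) and -0.73 ± 0.10 without the shallow library (adjusted p = 1.1e-05). PA2G4, a growth-regulated nucleolar protein, had 80.5, 83.9 and 92.5 FPKM in 1% oxygen, against 115, 108 and 122 FPKM in 5% oxygen. Without overlap the 1% libraries were the lower ones, and PA2G4 differed by -0.42 ± 0.08 with all libraries (adjusted p = 0.00053) and -0.48 ± 0.08 without the shallow library (adjusted p = 0.00013). NOP56, a core protein of box C/D particles that methylate ribosomal RNA, had 57.7, 57.7 and 26.4 FPKM in 1% oxygen, against 79.6, 80.05 and 91.9 FPKM in 5% oxygen. No 1% library reached the lowest 5% library, and NOP56 differed by -0.90 ± 0.17 with all libraries (adjusted p = 0.00063) and -0.53 ± 0.10 without the shallow library (adjusted p = 0.00048). MYC, which drives many of these genes, had 79.2, 76.2 and 88.7 FPKM in 1% oxygen, 92.9, 88.7 and 107 FPKM in 5% oxygen and 131, 133 and 134 FPKM in 21% oxygen. Its small difference of -0.24 and -0.30 (adjusted p = 0.02 and 0.0048) changed sign after rescaling to a common sum and was not called without replicate 3 of 5% oxygen. Neither MYC nor PA2G4 was called after quantile normalization or median centring. Of 29 subunits of RNA polymerases I, II and III 12 fell. POLR3K, a subunit of polymerase III, had 76.7, 88.1 and 49.6 FPKM in 1% oxygen, 144, 148 and 163 FPKM in 5% oxygen and 232, 236 and 243 FPKM in 21% oxygen. Every value in 1% was the lower one, and POLR3K differed by -1.11 ± 0.15 with all libraries (adjusted p = 2.1e-05) and -0.87 ± 0.13 without the shallow library (adjusted p = 3.5e-05). Of 77 cytosolic ribosomal proteins 4 fell, a share near the 8.46% of all genes that fell, and the count ran between 0 and 10 as single libraries were left out. Their median was -0.36 with all libraries and -0.22 without the shallow library, below the -0.20 and 0.08 of all genes.

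Of 18 cytosolic heat shock chaperones 6 fell and none rose, against 8.46% of all genes that fell. STIP1, which links HSP70 to HSP90, had 129, 143 and 112 FPKM in 1% oxygen, against 199, 192 and 223 FPKM in 5% oxygen. In 1% oxygen no value came up to those in 5%, and STIP1 differed by -0.68 ± 0.08 with all libraries (adjusted p = 8.2e-06) and -0.59 ± 0.08 without the shallow library (adjusted p = 2.1e-05). FKBP4, an HSP90 partner of steroid receptors, had 13.02, 15.1 and 18.2 FPKM in 1% oxygen, 33, 29.98 and 33.2 FPKM in 5% oxygen and 72.6, 73.9 and 73.4 FPKM in 21% oxygen. The order was 1%, 5%, 21% from low to high with wide gaps, and FKBP4 differed by -1.02 ± 0.25 with all libraries (adjusted p = 0.0037) and -1.14 ± 0.27 without the shallow library (adjusted p = 0.0025) between 1% and 5%. HSPB1, the small heat shock protein HSP27, had 109.8, 124 and 134 FPKM in 1% oxygen, against 175, 196 and 229 FPKM in 5% oxygen. There was no overlap, with 1% lower, and HSPB1 differed by -0.70 ± 0.14 with all libraries (adjusted p = 0.0012) and -0.76 ± 0.15 without the shallow library (adjusted p = 0.00079). Among 35 S phase genes 8 fell. MCM7, a subunit of the replicative helicase, had 217, 249.7 and 141 FPKM in 1% oxygen, against 310.2, 303 and 315 FPKM in 5% oxygen. The 3 libraries of 1% were below those of 5%, and MCM7 differed by -0.65 ± 0.11 with all libraries (adjusted p = 0.00027) and -0.41 ± 0.07 without the shallow library (adjusted p = 0.0001). PARP1, which senses DNA breaks, is not on the S phase list and was named for its difference between times. It had 63.3, 60.7 and 51.04 FPKM in 1% oxygen, 82.7, 87.7 and 100.04 FPKM in 5% oxygen and 144, 152 and 149.9 FPKM in 21% oxygen. Each 1% library lay under each 5% library, and PARP1 differed by -0.62 ± 0.08 with all libraries (adjusted p = 2.1e-05) and -0.53 ± 0.08 without the shallow library (adjusted p = 4.6e-05). Without replicate 1 of 1% oxygen 12 biogenesis, 4 polymerase, 4 heat shock and 3 S phase genes fell, and without replicate 3 of 5% the counts were 10, 6, 4 and 7. After rescaling to a common sum they were 4, 4, 1 and 0, and 5 S phase genes were called higher in place of none, with PA2G4, FKBP4, HSPB1, MCM7 and PARP1 among the genes that no longer passed.

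**Figure D4:**
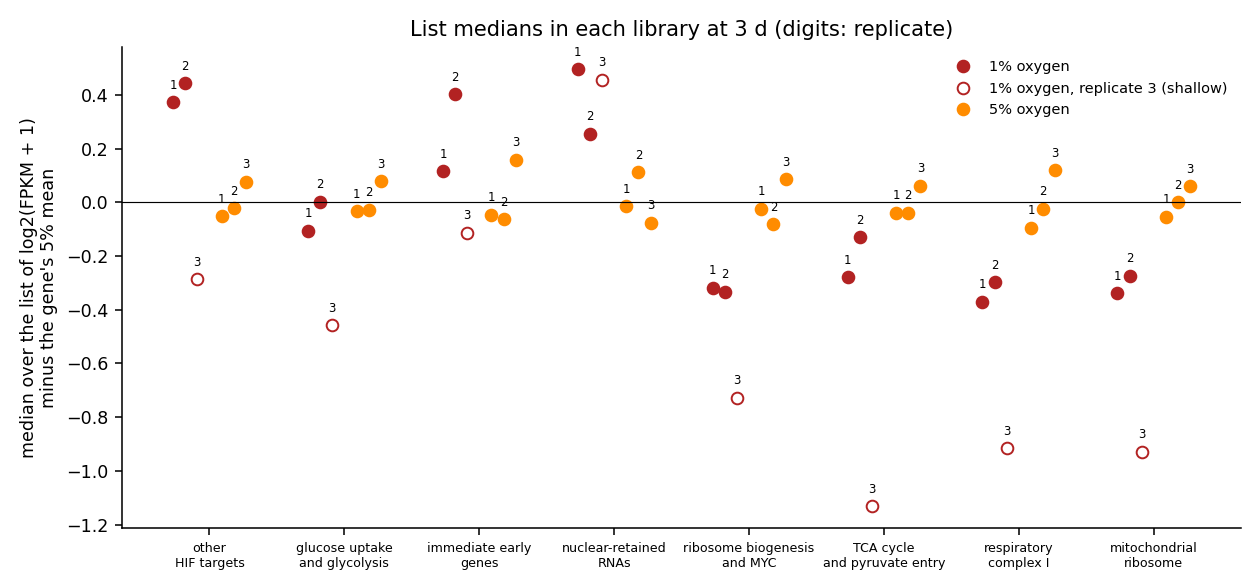
Median over each list of a library's log2(FPKM + 1) minus the gene's mean in 5% oxygen, for the 3 libraries of 1% oxygen (left of each pair of groups, shallow library open) and of 5% oxygen. Replicates 1 and 2 of 1% oxygen lay below the 5% libraries for the mitochondrial and nucleolar lists, as at -0.37 and -0.30 for complex I, while the shallow library was lower still.

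Part of the interferon-related genes fell. Of 23 tested 8 fell and IFIT1 rose, with a median of -0.77 with all libraries and -0.18 without the shallow library. Of all genes tested 8.46% fell. IFI30, a thiol reductase of lysosomes used in antigen processing, had 29.6, 31.8 and 0 FPKM in 1% oxygen, 87.7, 85.99 and 81.6 FPKM in 5% oxygen and 170.4, 176 and 199.7 FPKM in 21% oxygen. The shallow library was at 0 and the other 1% libraries were under those of 5%, and IFI30 differed by -3.10 ± 0.65 with all libraries (adjusted p = 0.0014) and -1.44 ± 0.11 without the shallow library (adjusted p = 1.6e-09). BST2, tetherin, had 64.7, 77.2 and 106 FPKM in 1% oxygen, 142, 130.3 and 142 FPKM in 5% oxygen and 170.03, 161 and 177 FPKM in 21% oxygen. Without overlap the 1% libraries were the lower ones, and BST2 differed by -0.76 ± 0.12 with all libraries (adjusted p = 9.8e-05) and -0.95 ± 0.10 without the shallow library (adjusted p = 2.4e-07). IFITM1, a membrane protein that restricts viruses, had 599, 666 and 356 FPKM in 1% oxygen, against 998, 1060.1 and 1164 FPKM in 5% oxygen. No 1% library reached the lowest 5% library, and IFITM1 differed by -1.04 ± 0.16 with all libraries (adjusted p = 0.00013) and -0.76 ± 0.14 without the shallow library (adjusted p = 0.00033). IFITM3, its relative, had 43.3, 41.6 and 65.2 FPKM in 1% oxygen, against 64.2, 84.3 and 87.9 FPKM in 5% oxygen. The groups overlapped, and IFITM3 differed by -0.66 ± 0.18 with all libraries (adjusted p = 0.0072) and -0.87 ± 0.17 without the shallow library (adjusted p = 0.00068). Members of the IFITM family are similar in sequence, so reads may be split between them. IFITM3 was not called after rescaling or median centring, and IFIT1 not without replicate 1 of 1% oxygen, after quantile normalization or with a pseudocount of 0.1. The count of 8 was 5 without replicate 1 of 1% oxygen, without replicate 3 of 5% oxygen or after rescaling. Of 36 proteasome genes 7 fell. PSMB10, an inducible subunit, had 10.4, 11.1 and 0 FPKM in 1% oxygen, against 19.1, 18.4 and 23.3 FPKM in 5% oxygen. Replicates 1 and 2 of 1% lay under the 5% libraries, the shallow one was at 0, and PSMB10 differed by -2.04 ± 0.49 with all libraries (adjusted p = 0.0036) and -0.86 ± 0.19 without the shallow library (adjusted p = 0.0016). That count was 2 without replicate 1 of 1% oxygen and 3 without replicate 3 of 5% oxygen.

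Erythroid genes were called in both directions. Of 29 globin and red cell membrane genes 4 rose (SLC4A1, RHD, AQP10 and ANK1) and 3 fell (HBQ1, GYPC and ICAM4). These shares are near the 8.63% and 8.46% of all genes that rose and fell, and the count is no result about the list. SLC4A1, the anion exchanger band 3, had 10.6, 12.1 and 13.6 FPKM in 1% oxygen, 7.29, 6.32 and 4.94 FPKM in 5% oxygen and 2.902, 2.79 and 2.55 FPKM in 21% oxygen. The groups did not overlap, the 1% libraries being higher, and SLC4A1 differed by 0.87 ± 0.15 with all libraries (adjusted p = 0.00029) and 0.79 ± 0.16 without the shallow library (adjusted p = 0.00069). RHD, the Rh blood group D antigen, had 20.7, 21.3 and 20.5 FPKM in 1% oxygen, 13.5, 13.97 and 13.5 FPKM in 5% oxygen and 4.58, 4.22 and 5.104 FPKM in 21% oxygen. Replicates lay within 1 FPKM of each other in each group, and RHD differed by 0.57 ± 0.10 with all libraries (adjusted p = 0.0003) and 0.59 ± 0.10 without the shallow library (adjusted p = 0.0002). RHD and RHCE are close copies, so the split of reads between them is uncertain. The embryonic globins did not pass. HBZ, the zeta chain, had 2515, 3109 and 1549.8 FPKM in 1% oxygen, against 2497, 2658 and 2770.2 FPKM in 5% oxygen, with 95% intervals of -0.58 to 0.18 and -0.26 to 0.43 for the difference. HBE1, the epsilon chain, had 5435, 5392 and 4222 FPKM in 1% oxygen, against 4517, 4738 and 5669 FPKM in 5% oxygen, with intervals of -0.28 to 0.29 and -0.18 to 0.44. ALAS2, which starts heme synthesis in red cells, had 56.2, 61.8 and 92.9 FPKM in 1% oxygen, against 59.2, 51.2 and 63.6 FPKM in 5% oxygen, and differed by 0.24 and 0.03 (adjusted p = 0.17 and 0.89). HBQ1, the theta globin gene, had 14.3, 20.1 and 0 FPKM in 1% oxygen, against 36.3, 32.2 and 40.8 FPKM in 5% oxygen. The shallow library was at 0 and the other 1% libraries were under those of 5%, and HBQ1 differed by -2.44 ± 0.56 with all libraries (adjusted p = 0.0025) and -1.05 ± 0.16 without the shallow library (adjusted p = 4.9e-05). NFE2, an erythroid transcription factor, had 115, 113 and 124 FPKM in 1% oxygen, against 168, 174 and 240.1 FPKM in 5% oxygen. Every value in 1% was the lower one, and NFE2 differed by -0.70 ± 0.11 with all libraries (adjusted p = 0.00013) and -0.74 ± 0.12 without the shallow library (adjusted p = 9.6e-05). ANK1, of the red cell skeleton, falls outside the rule for named genes and was chosen after its values were seen. The call of AQP10 was lost without replicate 2 of 1%, that of ANK1 without replicate 1 or 2 of 1% or replicate 3 of 5%, and those of GYPC and ICAM4 without replicate 1 of 1% oxygen or after rescaling.

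Lipid, redox and amino acid genes gave mixed directions. Of 16 genes of fatty acid synthesis FASN and SREBF1 rose and FADS2 fell, and of 25 genes of cholesterol synthesis and uptake 1 rose and 4 fell. Of all genes tested 8.63% rose and 8.46% fell, so counts this small are no result about either list. FASN, fatty acid synthase, had 96.7, 124 and 102 FPKM in 1% oxygen, 70.9, 61.3 and 41.5 FPKM in 5% oxygen and 55.6, 52.6 and 48.2 FPKM in 21% oxygen. FASN differed by 0.91 ± 0.15 with all libraries (adjusted p = 0.00021) and 0.94 ± 0.16 without the shallow library (adjusted p = 0.0002). SREBF1, a transcription factor that drives it, rose too (0.50 and 0.51), although not without replicate 2 of 1% or replicate 3 of 5% oxygen. FADS2, a fatty acid desaturase, had 2.48, 3.96 and 0 FPKM in 1% oxygen, against 4.36, 4.86 and 6.08 FPKM in 5% oxygen. The shallow library was at 0 and the other 1% libraries were under those of 5%, and FADS2 differed by -1.23 ± 0.32 with all libraries (adjusted p = 0.0056) and -0.54 ± 0.18 without the shallow library (adjusted p = 0.026). On the list of 23 NRF2 and antioxidant genes 3 rose and 6 fell. GCLM, a subunit of the enzyme that starts glutathione synthesis, had 12.7, 13.1 and 11.2 FPKM in 1% oxygen, against 7.24, 6.004 and 3.299 FPKM in 5% oxygen. No 5% library reached the lowest 1% library, and GCLM differed by 1.08 ± 0.18 with all libraries (adjusted p = 0.00016) and 1.14 ± 0.19 without the shallow library (adjusted p = 0.0001). CAT, catalase, had 46.5, 46.9 and 22.9 FPKM in 1% oxygen, 60.2, 61.95 and 70.4 FPKM in 5% oxygen and 89.6, 92.9 and 96.5 FPKM in 21% oxygen. In 1% oxygen no value came up to those in 5%, and CAT differed by -0.78 ± 0.15 with all libraries (adjusted p = 0.00057) and -0.45 ± 0.07 without the shallow library (adjusted p = 8.5e-05). SOD2, the mitochondrial superoxide dismutase, had 28.6, 28.4 and 22.8 FPKM in 1% oxygen, 38.3, 42.4 and 45.5 FPKM in 5% oxygen and 75.6, 73.4 and 78.05 FPKM in 21% oxygen. There was no overlap, with 1% lower, and SOD2 differed by -0.65 ± 0.11 with all libraries (adjusted p = 0.00034) and -0.54 ± 0.12 without the shallow library (adjusted p = 0.0012). On the list of 26 ATF4 and amino acid response genes 4 rose, with DDIT4 as given above among them, and 5 fell. ALDH18A1, which starts proline synthesis, had 16.7, 17.2 and 4.93 FPKM in 1% oxygen, against 25.1, 27.7 and 29.9 FPKM in 5% oxygen. The 3 libraries of 1% were below those of 5%, and ALDH18A1 differed by -1.20 ± 0.22 with all libraries (adjusted p = 0.00054) and -0.67 ± 0.09 without the shallow library (adjusted p = 1.2e-05). SLC38A2, a transporter of neutral amino acids, was named from another list, that of amino acid transporters. It had 286, 268 and 255 FPKM in 1% oxygen, against 198, 183 and 190.4 FPKM in 5% oxygen. Values in 1% were all the higher ones, and SLC38A2 differed by 0.50 ± 0.09 with all libraries (adjusted p = 0.00051) and 0.54 ± 0.10 without the shallow library (adjusted p = 0.00027). ARRDC4, an arrestin that MondoA induces, was named from the list of the MYC and MAX network. It had 6.02, 8.18 and 4.16 FPKM in 1% oxygen, against 3.28, 2.3 and 2.78 FPKM in 5% oxygen. In 1% oxygen every value topped those in 5%, and ARRDC4 differed by 0.88 ± 0.19 with all libraries (adjusted p = 0.0014) and 1.09 ± 0.18 without the shallow library (adjusted p = 8.5e-05). These calls held when any 1 library other than the shallow one was left out, except for SREBF1 as given and for FADS2. The call of FADS2 was lost without replicate 1 of 1% or replicate 3 of 5% oxygen. FADS2 was also lost with array weights. Neither FADS2 nor CAT passed after rescaling to a common sum.

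Several of the strongest falls were genes with few shared roles. RDM1, related to a DNA repair protein, had 1.52, 1.56 and 0 FPKM in 1% oxygen, against 6.48, 6.15 and 5.698 FPKM in 5% oxygen. The shallow library was at 0 and the other 1% libraries were under those of 5%, and RDM1 differed by -1.93 ± 0.29 with all libraries (adjusted p = 6.1e-05) and -1.48 ± 0.25 without the shallow library (adjusted p = 0.00011). PFDN6, a prefoldin subunit that hands actin and tubulin to their chaperonin, had 10.6, 16.5 and 0 FPKM in 1% oxygen, against 35.1, 33.5 and 42 FPKM in 5% oxygen. Replicates 1 and 2 of 1% lay under the 5% libraries, the shallow one was at 0, and PFDN6 differed by -2.68 ± 0.56 with all libraries (adjusted p = 0.0013) and -1.40 ± 0.28 without the shallow library (adjusted p = 0.00069). FAM178B had 97.4, 89.4 and 12.9 FPKM in 1% oxygen, 209, 225 and 275 FPKM in 5% oxygen and 58.2, 54.7 and 63.1 FPKM in 21% oxygen. The highest of the 3 levels was 5%, and FAM178B differed by -2.24 ± 0.38 with all libraries (adjusted p = 0.00024) and -1.32 ± 0.15 without the shallow library (adjusted p = 1.2e-06) between 1% and 5%. RNF26, a ubiquitin ligase, had 15.6, 12.8 and 6.13 FPKM in 1% oxygen, against 26.1, 25.4 and 31.6 FPKM in 5% oxygen. Each 1% library lay under each 5% library, and RNF26 differed by -1.28 ± 0.20 with all libraries (adjusted p = 0.0001) and -0.91 ± 0.15 without the shallow library (adjusted p = 9.3e-05). CPZ, a carboxypeptidase, had 5.41, 7.12 and 7.82 FPKM in 1% oxygen, against 12.8, 12.3 and 15.7 FPKM in 5% oxygen. Without overlap the 1% libraries were the lower ones, and CPZ differed by -0.91 ± 0.15 with all libraries (adjusted p = 0.00014) and -1.01 ± 0.15 without the shallow library (adjusted p = 3.9e-05). GP1BB, a platelet glycoprotein chain, had one of the largest rises, but it rested on single libraries. GP1BB had 6.82, 164 and 14.2 FPKM in 1% oxygen, against 5.89, 1.47 and 1.9e-07 FPKM in 5% oxygen. It shares reads with the read-through gene SEPT5-GP1BB, which had 1.88, 25.2 and 45.2 FPKM in 1% oxygen, against 0.3296, 0.244 and 0.951 FPKM in 5% oxygen. Neither was called without replicate 2 of 1% oxygen or without replicate 2 or 3 of 5% oxygen.

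The difference between 1% and 5% oxygen was smaller in number of genes at the earlier times. By the same rule 4 genes passed at 6 h (0.0361% of those tested), of which 3 were higher (0.0271%) and 1 was lower (0.00903%). At 24 h 78 passed (0.704%), 70 higher (0.632%) and 8 lower (0.0722%), and at 6 d 961 passed (8.67%), 500 higher (4.51%) and 461 lower (4.16%). Several HIF targets that did not pass at 3 d were higher in 1% oxygen at 24 h. ALDOC had 114, 110.4 and 122 FPKM in 1% oxygen, against 39.7, 39.7 and 40.98 FPKM in 5% oxygen at 24 h, a difference of 1.50 ± 0.11 (adjusted p = 4e-10). PFKFB4, which makes the activator of phosphofructokinase, had 31.5, 32.4 and 35.02 FPKM in 1% oxygen, against 8.07, 9.601 and 8.53 FPKM in 5% oxygen at 24 h, a difference of 1.80 ± 0.18 (adjusted p = 3.5e-07), and the groups were far apart. At 3 d PFKFB4 had 47.4, 58.1 and 24.4 FPKM in 1% oxygen, against 42.6, 42.5 and 44.4 FPKM in 5% oxygen, and it did not pass (-0.08 and 0.28). BNIP3 differed by 1.08 ± 0.09 (adjusted p = 1.3e-08) and GPI by 0.64 ± 0.06 (adjusted p = 2.9e-08) at 24 h. At 6 d the 4 genes were again higher in 1% oxygen, by 0.40 for ALDOC, 0.96 for PFKFB4, 0.82 for BNIP3 and 0.65 for GPI. The difference at 3 d was tested against that at each other time, and it departed from the one at 6 h in 1302 genes (11.8%), more positive at 3 d in 549 (4.96%) and more negative in 753 (6.8%). It departed from the one at 24 h in 469 genes (4.23%), more positive in 249 (2.25%) and more negative in 220 (1.99%). The glycolysis list had a median difference of 0.47 at 24 h and 0.33 at 6 d. For 13 of its 21 members the difference at 3 d passed the test as below the one at 6 d in both fits. Over all genes tested that share was 12.5%. The count of 469 depended on single libraries. It was 111 without replicate 1, 951 without replicate 2 and 1070 without the shallow replicate 3 of 1% oxygen, and 121 without replicate 3 of 5% oxygen.

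For many genes the difference between 1% and 5% oxygen was another one at 6 d. The difference at 3 d departed from that at 6 d in 2519 genes (22.7%), more positive at 3 d in 1135 (10.2%) and more negative in 1384 (12.5%), and in 4179 without the shallow library. Of all genes tested 4.51% passed as higher and 4.16% as lower in 1% oxygen at 6 d in both fits. Of the 956 genes that rose at 3 d, 38 passed as higher at 6 d, which is near that share, and 116 as lower. Of the 937 that fell at 3 d, 119 passed as higher and 22 as lower at 6 d. Most genes called at 3 d passed in neither direction at 6 d. KRT8 had 846, 812 and 788 FPKM in 1% oxygen, against 2604, 2796 and 2571 FPKM in 5% oxygen at 6 d, a difference of -1.70 ± 0.10 (adjusted p = 2.7e-12). KRT18 differed by -1.71 ± 0.09 (adjusted p = 5.5e-13) and PHLDA1 by -2.27 ± 0.22 (adjusted p = 2.5e-08). JUN differed by -1.91 ± 0.26 (adjusted p = 8.2e-06) and EPAS1 by -1.28 ± 0.15 (adjusted p = 1.5e-06) at that time, and all 5 genes went in the direction opposite to 3 d. VIM, the filament protein vimentin, and TIMP1, an inhibitor of matrix proteases, did not pass at 3 d. VIM differed by 0.10 and 0.16 at 3 d and by -1.87 at 6 d, and TIMP1 by -0.20 and -0.08 at 3 d and by -2.50 at 6 d. DMKN kept its direction, with 43.5, 44.3 and 33.5 FPKM in 1% oxygen, against 3.26, 3.28 and 4.14 FPKM in 5% oxygen at 6 d. The mitochondrial ribosome list, with a median of -0.57 and -0.31 at 3 d, had -0.08 at 24 h and 0.21 at 6 d. For 41 of its 76 members the difference at 3 d passed the test as below that at 6 d in both fits. For complex I 19 of 44 passed in that way, with a median of 0.21 at 6 d. Because the cultures were passaged at 3 d, the time and the passage cannot be told apart between 3 d and 6 d.

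**Figure D5:**
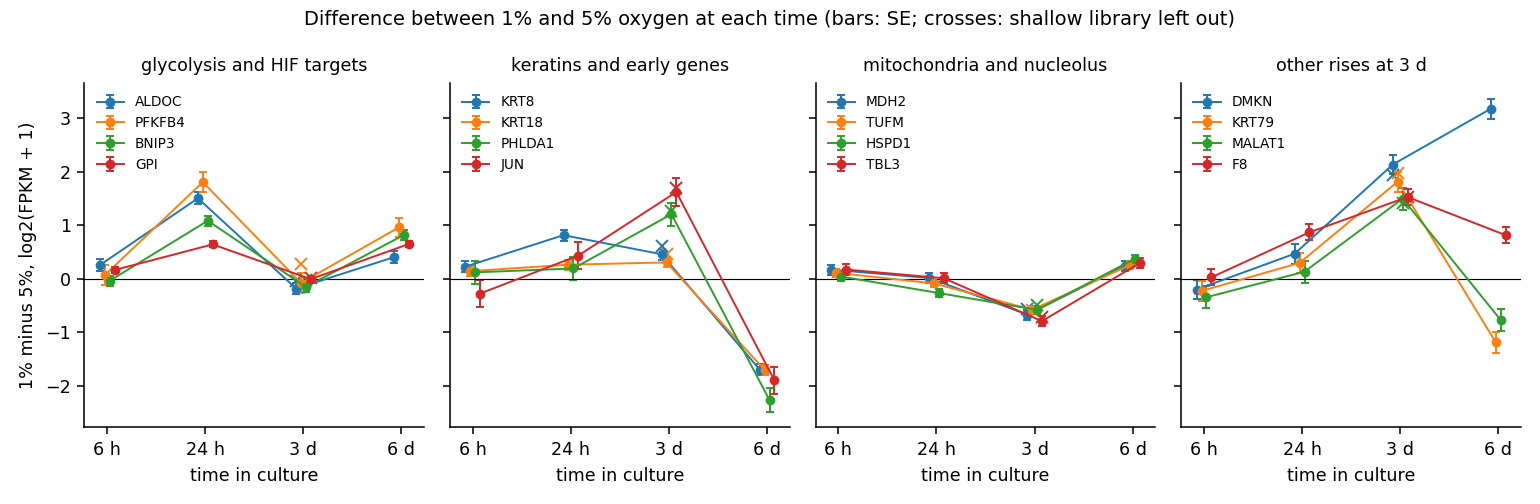
Difference of 1% minus 5% oxygen in log2(FPKM + 1) at 6 h, 24 h, 3 d and 6 d for 16 genes, with SE bars from the fit to all libraries and crosses for 3 d without the shallow library. The glycolytic genes were near 0 at 3 d between positive values at 24 h and 6 d, the keratins and JUN turned negative at 6 d, and MDH2, TUFM, HSPD1 and TBL3 were lowest at 3 d.

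Against 21% oxygen at 3 d, 4352 genes passed in both fits for 1% (39.3%), 1713 higher (15.5%) and 2639 lower (23.8%), and 2384 for 5% (21.5%), 975 higher (8.8%) and 1409 lower (12.7%). These comparisons share their libraries with the one between 1% and 5%, so their values are set side by side only. Of the 956 genes that rose in 1% against 5% oxygen, 535 had means at both 1% and 5% above that at 21%. Of the 937 that fell, 739 had both means below it. The same was not counted over all genes tested, so neither count is read as an order by oxygen level. In the glycolysis list 16 of 21 genes passed in both fits as higher at 1% than at 21%, and 17 as higher at 5%. In the mitochondrial ribosome list 67 of 76 passed as lower at 1% than at 21%, and 34 as lower at 5%. The median differences from 21% without the shallow library were 0.89 at 1% and 0.90 at 5% for glycolysis. For the mitochondrial ribosome they were -0.72 at 1% and -0.47 at 5%.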

How the data were processed

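RNA from K562 cells was sequenced as poly(A) libraries. The authors deposited a table of FPKM per gene made with TopHat, Cufflinks and Cuffnorm, per the submitters' processing notes, with versions, genome build and annotation not given in the sources used here. Columns were matched to the labels by their names. FPKM were turned into log2(FPKM + 1), which understates changes of low genes, and genes with a mean of at least 1 FPKM over the 6 libraries were tested. limma 3.58.1 (R 4.3.3) was fitted with 12 group means and a trended prior to all 36 libraries and to 35 without the shallow one, and p-values were adjusted by the Benjamini-Hochberg method over the 11078 genes. Differences carry SE, and intervals are at 95%. Contrasts of 3 d against the other times used the same fits. A test on simulated data was also run, but its outcome is not given here and no conclusion is drawn from it. It is no evidence on how the rule of passing in both fits handles the shallow library, nor on the contrasts between times. The files hold no counts, so absolute depth is unknown and no count model was used. Promoter windows were searched with Python 3.11.15 and figures drawn with matplotlib 3.10.9.

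Named genes were the 15 largest rises and falls without overlap and with at least 5 FPKM, up to 5 members of each of 45 gene lists by p, members called against their list's direction, a fixed set of 30 hypoxia, keratin and erythroid genes, and 8 genes for each test between times. The members and lists were chosen with earlier results of these data known. Alternatives were another pseudocount, other filters, scalings and weights, a smaller fit, a replicate block, and each library left out in turn. Some genes are not reported here.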

Additional observations from a re-analysis of the deposited data

Results flagged for a closer look

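The difference between 1% and 5% oxygen at 3 d was tested against the same difference at each other time in limma, with adjusted p-values over all genes, and is given here as the difference at 3 d minus that at the other time, in log2(FPKM + 1) with SE, for genes that passed in both fits. Each value stands first with all libraries and then without the shallow library. It departed from the one at 6 h in 1302 genes (11.8% of those tested), from the one at 24 h in 469 and from the one at 6 d in 2519. Groups had 3 libraries each, so single libraries were not tested as outliers.

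Against 24 h, 8 genes named for this test are given. The value was -1.69 ± 0.15 and -1.55 ± 0.14 (adjusted p = 1.1e-07 and 4e-08) for ALDOC and -1.89 ± 0.26 and -1.53 ± 0.17 (adjusted p = 0.00016 and 1.9e-06) for PFKFB4. It was -1.24 ± 0.13 and -1.11 ± 0.11 (adjusted p = 1.7e-06 and 3.1e-07) for BNIP3, -0.65 ± 0.08 and -0.63 ± 0.08 (adjusted p = 3.6e-05 and 3.3e-05) for GPI and -0.88 ± 0.13 and -0.73 ± 0.12 (adjusted p = 0.00042 and 0.00058) for ALDOA, an aldolase. EGFL7, a secreted vessel protein, had -1.69 ± 0.15 and -1.68 ± 0.16 (adjusted p = 1.1e-07 and 8e-08) and PLOD1 had -1.02 ± 0.14 and -0.98 ± 0.14 (adjusted p = 0.00013 and 8.4e-05). DMKN had 1.67 ± 0.26 and 1.47 ± 0.24 (adjusted p = 0.0012 and 0.00068).

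Against 6 h, 8 genes named for this test are given. The value was 2.34 ± 0.26 and 2.14 ± 0.24 (adjusted p = 2e-05 and 3.5e-06) for DMKN, 2.04 ± 0.27 and 2.20 ± 0.25 (adjusted p = 0.00016 and 4.7e-06) for KRT79, 1.68 ± 0.22 and 1.71 ± 0.23 (adjusted p = 0.00019 and 4.6e-05) for SLC5A3 and 1.50 ± 0.21 and 1.50 ± 0.21 (adjusted p = 0.00027 and 5.6e-05) for F8. It was -0.97 ± 0.14 and -0.90 ± 0.13 (adjusted p = 0.00027 and 8.8e-05) for TBL3, -0.77 ± 0.11 and -0.80 ± 0.11 (adjusted p = 0.00033 and 6.3e-05) for TRAP1, -0.69 ± 0.10 and -0.69 ± 0.10 (adjusted p = 0.00033 and 0.00014) for TUFM and -0.81 ± 0.12 and -0.72 ± 0.11 (adjusted p = 0.00034 and 0.00013) for PARP1.

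Against 6 d, 8 genes named for this test and 5 others described above are given. The value was 2.16 ± 0.15 and 2.30 ± 0.13 (adjusted p = 9e-11 and 3.2e-13) for KRT8, 2.01 ± 0.13 and 2.17 ± 0.11 (adjusted p = 8.1e-11 and 1.4e-13) for KRT18 and 3.01 ± 0.27 and 3.16 ± 0.25 (adjusted p = 1.3e-08 and 4.1e-10) for KRT79. It was 1.97 ± 0.12 and 2.03 ± 0.12 (adjusted p = 9.3e-12 and 6.7e-13) for VIM and 2.31 ± 0.18 and 2.42 ± 0.18 (adjusted p = 2.1e-09 and 1.7e-10) for TIMP1. It was 3.48 ± 0.31 and 3.53 ± 0.31 (adjusted p = 1.3e-08 and 3.1e-09) for PHLDA1 and 3.53 ± 0.36 and 3.60 ± 0.37 (adjusted p = 2.2e-07 and 4.9e-08) for JUN. Further values were 1.71 ± 0.13 and 1.75 ± 0.13 (adjusted p = 8.1e-10 and 1.4e-10) for SLC38A2 and 2.27 ± 0.29 and 2.19 ± 0.30 (adjusted p = 3.6e-06 and 3.2e-06) for MALAT1. OAT, ornithine aminotransferase, had -1.26 ± 0.09 and -1.28 ± 0.09 (adjusted p = 9.5e-11 and 2.1e-11). Among genes of the hypoxia response it was 2.34 ± 0.22 and 2.40 ± 0.22 (adjusted p = 3.5e-08 and 5.1e-09) for EPAS1, 1.34 ± 0.16 and 1.24 ± 0.15 (adjusted p = 1.3e-06 and 6.3e-07) for BHLHE40 and 2.45 ± 0.47 and 3.17 ± 0.24 (adjusted p = 0.00046 and 2.6e-10) for ANGPTL4.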

How the results depend on the processing

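With all libraries 4248 genes passed, 2292 with limma array weights, 1559 with a difference of at least 1 and 0 in a fit to the 6 libraries alone, where 683 had an unadjusted p under 0.05. Without the shallow library 3161 passed, 5784 with no filter on low values, 2101 with a mean of at least 5 FPKM, 1666 with array weights, 169 with a difference of at least 1 and 12 in the fit to those libraries alone. For genes that passed in both forms the counts were 1893, 89 with a difference of at least 1 (75 rises and 14 falls) and 0 in the fit to the compared libraries alone, where 660 had an unadjusted p under 0.05. Rises numbered 586 with a mean of at least 5 FPKM and 1488 after rescaling to a common sum, where falls numbered 224. That rescaling changed the sign of MYC, to 0.087. The small difference of OAT at 3 d, -0.17, became 0.069 after quantile normalization, 0.16 after rescaling and 0.0098 after median centring, and the cause was not tested. Against 6 h the tested difference between times passed in 644 genes when only libraries of 1% and 5% oxygen were fitted. Against 24 h it passed in 172 genes in that fit, in 735 after quantile normalization and in 229 after rescaling.

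Leaving out 1 library at a time gave 2182 to 6788 calls with all libraries, 1460 to 3049 on top of the shallow library, 859 to 3161 in both fits, 496 to 2034 rises and 363 to 1127 falls. The tests between times ranged from 651 to 2378 against 6 h, 111 to 1070 against 24 h and 2009 to 4179 against 6 d. The upper ends of the ranges for both fits and between times come from leaving out the shallow library, where the fits are the same. With the replicate number as a block 1750 genes passed in both fits, 899 rises and 851 falls, and 4162 with all libraries. Deviations of libraries with the same number had correlations of -0.04, -0.04 and -0.02 for numbers 1, 2 and 3. The shallow library enters the deviations of all 1% libraries, so these values cannot decide whether the numbers pair the samples. The files give no counts. Relative depths estimated from low values, as the commonest ratio to replicate 1 of 5% oxygen, were 0.439 and 0.734 in replicates 1 and 2 of 1% oxygen and 1, 0.827 and 1.21 in 5% oxygen, but 10.9 to 12.9% of the low genes lay within 0.05 (log2) of that ratio. No estimate was made for the shallow library, and absolute depths are unknown.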

Other observations

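Further lists held some genes that passed at 3 d. Of 20 cytosolic aminoacyl-tRNA synthetases, which charge transfer RNAs, 6 fell and none rose, with a median of -0.35 with all libraries and -0.20 without the shallow library. That count was 3 without replicate 1 of 1% oxygen and 1 after rescaling to a common sum. FARSA, the alpha subunit of the phenylalanine enzyme, had 89.1, 105 and 48.2 FPKM in 1% oxygen, against 135, 141 and 141 FPKM in 5% oxygen, for a difference of -0.85 ± 0.15 with all libraries (adjusted p = 0.0004) and -0.52 ± 0.09 without the shallow library (adjusted p = 0.00021). Of 31 genes of G2 phase and mitosis 3 fell, CDC20, CDC25B and AURKB, and 2 rose, CENPE and MKI67. These shares are near the 8.46% and 8.63% of all genes that fell and rose, and the count is no result about the list. CENPE, a kinesin of the centromere, had 9.95, 10.2 and 7.69 FPKM in 1% oxygen, against 6.44, 6.75 and 3.82 FPKM in 5% oxygen, with no overlap, for 0.64 ± 0.15 with all libraries (adjusted p = 0.0025) and 0.76 ± 0.15 without the shallow library (adjusted p = 0.00055). None of the 3 falls was called without replicate 1 of 1% oxygen or after rescaling, and MKI67 was not called without replicate 1 or 2 of 1% or replicate 3 of 5% oxygen.

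Of 9 metallothionein and zinc genes MT1H and MTF1 rose and none fell, with a median of 0.25 with all libraries and 0.68 without the shallow library. Of all genes tested 8.63% rose. MTF1, the transcription factor that senses zinc, had 3.95, 3.05 and 6.24 FPKM in 1% oxygen, against 3.25, 2.41 and 1.88 FPKM in 5% oxygen, for a difference of 0.60 ± 0.15 with all libraries (adjusted p = 0.0058) and 0.37 ± 0.13 without the shallow library (adjusted p = 0.034). Its groups overlapped, and it was not called without replicate 1 of 1% or replicate 2 or 3 of 5% oxygen, nor MT1H without replicate 1 of 1% or replicate 3 of 5% oxygen. Metallothionein genes are close copies, so reads may be split among them. PPP1R3B, which brings a phosphatase to glycogen, rose. It had 6.63, 7.25 and 6.02 FPKM in 1% oxygen, against 4.28, 4.93 and 3.75 FPKM in 5% oxygen, for 0.52 ± 0.15 with all libraries (adjusted p = 0.01) and 0.58 ± 0.15 without the shallow library (adjusted p = 0.0063). It was not called without replicate 2 of 1% or replicate 3 of 5% oxygen or with array weights.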
